A study of Homo sapiens with 12 samples.

Results

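The genes described here are the transcription factors and close partners of the integrated stress response: ATF4, ATF3, ATF5, DDIT3, CEBPB, CEBPG, TRIB3 and NUPR1. They were taken by name from the table that the authors deposited in FPKM (fragments per kilobase of gene, scaled to library size), and each name matched 1 of its 61466 rows. RNA was sequenced from SU-DHL-8 and Farage, both established human lines of diffuse large B cell lymphoma, after 12 h. Each line was given morusinol, a prenylated flavonoid of mulberry, or vehicle, which made 4 groups of 3 libraries: SU-DHL-8 morusinol, SU-DHL-8 control, Farage morusinol and Farage control. The labels state neither the dose nor whether replicates are separate cultures. The p-values therefore measure the spread between these libraries, which may be technical.

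The integrated stress response begins when a kinase phosphorylates the translation factor eIF2alpha. General protein synthesis then falls, while the ATF4 messenger, which carries short upstream reading frames, is translated more. ATF4 protein pairs with other basic leucine zipper (bZIP) factors, the C/EBP family among them, and binds genes of amino acid supply and stress. ATF3, DDIT3 (which codes for CHOP) and TRIB3 are known downstream genes. B lymphocytes use the related unfolded protein response when they become antibody-secreting cells. FPKM measures RNA only, so translation of ATF4 was outside these measurements.

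The start regions of DDIT3 and CEBPG are shown because they hold motifs by which bZIP factors are known to bind, and because both genes were higher with morusinol in both lines. RefSeq (build GRCh38.p14) gave start windows for 7 of the 8 genes, 16 windows in all, and none was used for NUPR1. In the 250 bases before each start, on both strands, 5 motifs were searched: TGATGNAA, the core of the joint ATF4 and C/EBP element, TGANTCA (AP-1), TGACGTCA (the cyclic AMP element), CCAAT (bound by NF-Y) and CACGTG (the E-box). The DDIT3 bases are chr12:57520518-57520767 (minus strand, 250 bases before the start at 57520517, within an intron of a longer transcript). The AP-1 match and an NF-Y match on each strand are in capitals. The CEBPG bases are chr19:33373913-33374112 (plus strand, 200 bases before the start at 33374113, within the first intron of a longer transcript), with the TGATGNAA match in capitals.
DDIT3: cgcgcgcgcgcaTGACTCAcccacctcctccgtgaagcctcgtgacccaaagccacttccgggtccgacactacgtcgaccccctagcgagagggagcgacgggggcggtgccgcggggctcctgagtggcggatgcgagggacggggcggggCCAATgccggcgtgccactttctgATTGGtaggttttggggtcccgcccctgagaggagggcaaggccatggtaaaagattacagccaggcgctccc
CEBPG: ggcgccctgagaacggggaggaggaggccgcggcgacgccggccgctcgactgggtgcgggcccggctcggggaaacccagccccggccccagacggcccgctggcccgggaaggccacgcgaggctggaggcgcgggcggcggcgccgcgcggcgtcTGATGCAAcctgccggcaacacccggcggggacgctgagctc
Among all 35116 windows of 250 bases, 3.14% held TGATGNAA, 6.57% TGANTCA, 1.65% TGACGTCA, 32% CCAAT and 6.34% CACGTG. Besides CEBPG, TGATGNAA was found 191 bases before 1 of the ATF3 starts. ATF3 also rose in both lines, but its bases are not shown. CCAAT also lay before 1 ATF3 start (25 bases), the other CEBPG start (85 and 24 bases) and 1 CEBPB start (245 bases). TGANTCA also lay 188 bases before 1 ATF5 start, and CACGTG before both ATF4 starts, at 82 and 85 bases. No window of these genes held TGACGTCA. A match describes the letters only and says nothing of binding.

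Of the 8 genes, 7 had at least 1 FPKM in 11 or all 12 libraries and entered the test over 17574 genes. In SU-DHL-8, ATF3, DDIT3, CEBPB, TRIB3, CEBPG and ATF4 rose with morusinol and ATF5 fell, while in Farage all of these 7 rose. The fold changes of FPKM + 1 were larger in Farage for each of them. As background, 46.8% of all genes tested were called in SU-DHL-8 (25.1% higher, 21.6% lower) and 43.1% in Farage (21.9% higher, 21.2% lower), at an adjusted p under 0.05 in limma. Of the calls in SU-DHL-8, 53.7% were higher, against 44.4% with each library rescaled to a common sum (TPM) and 60.0% with scaling to protein-coding genes. A call alone therefore says little here, and the sizes are given with each gene. The median log2 fold change of the 7 genes was 2.03 in SU-DHL-8 and 2.52 in Farage, beside medians over all genes of 0.02 and -0.03.

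**Figure D1:**
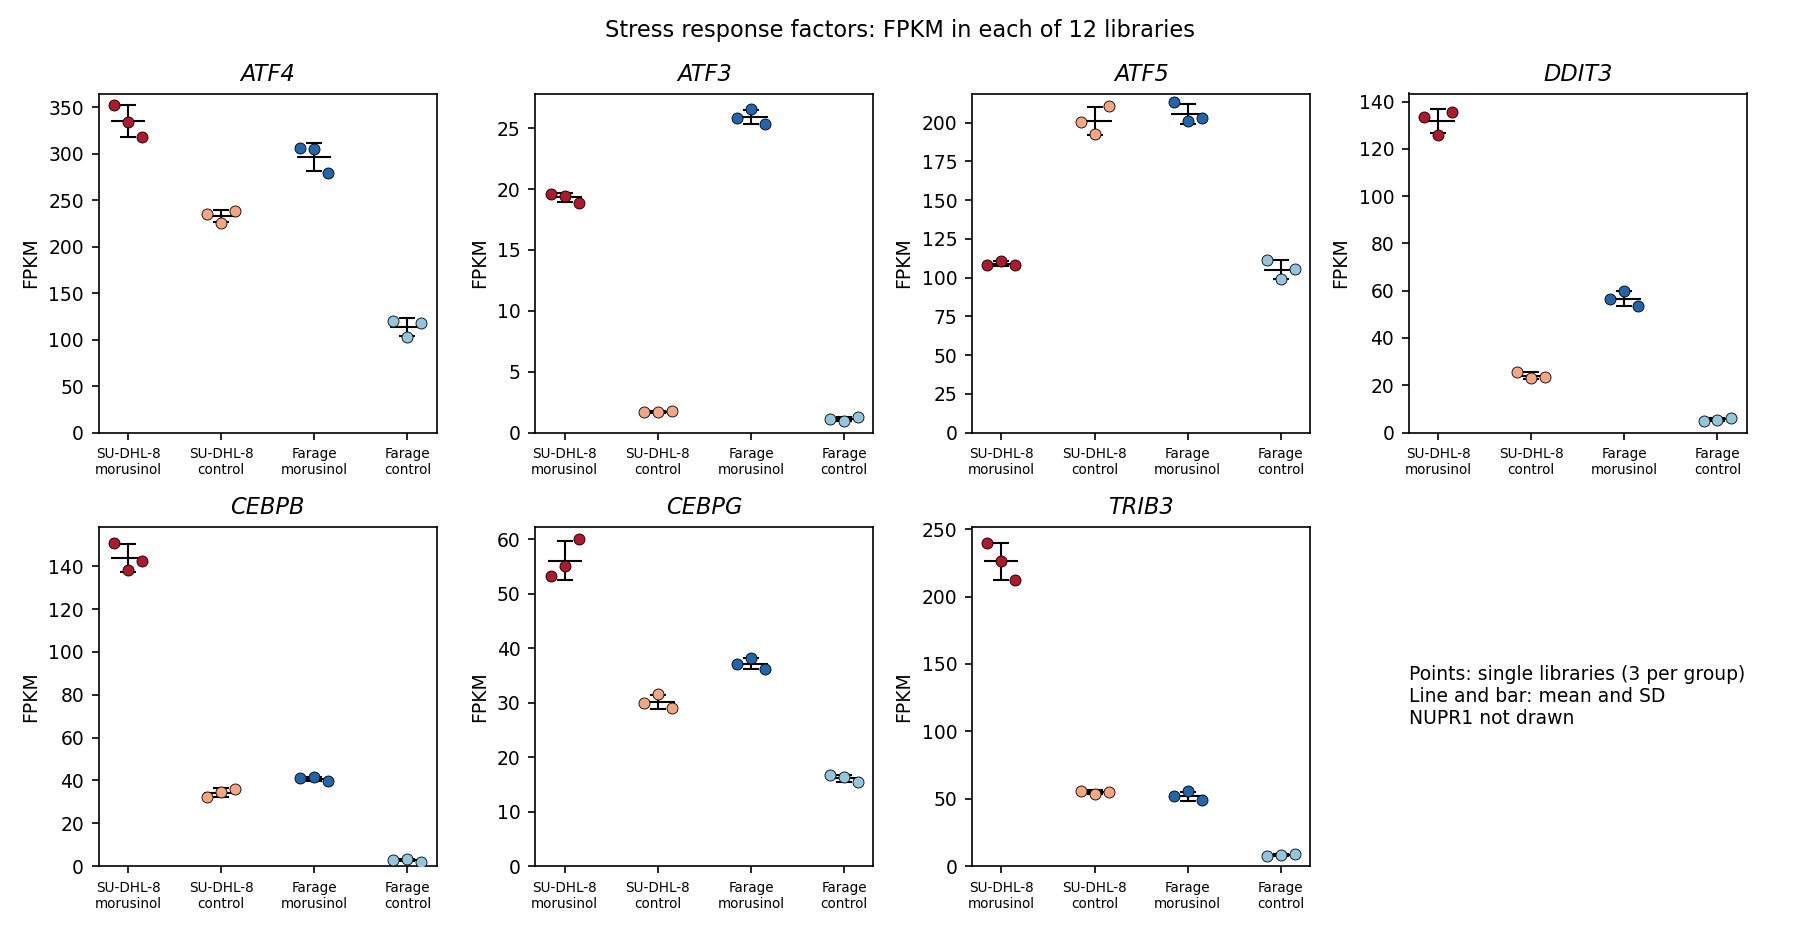
FPKM (vertical axes, from 0) of 7 stress response factors in each library, by group, with the mean as a line and the SD as bars. Morusinol libraries lie above the control libraries of their own line in every panel except ATF5 in SU-DHL-8, where they lie below.

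ATF4 (ENSG00000128272, chr22:39519695-39522685, plus strand), the central factor of the response, was the most abundant of the 8 in every group. In SU-DHL-8 it was at 353, 335 and 318 FPKM with morusinol, against 235, 226 and 239 FPKM in control. In Farage it was at 306, 306 and 279 FPKM with morusinol, against 120, 102 and 118 FPKM in control. The groups did not overlap in either line, and the treated libraries of both lines came close to each other from unequal starting levels. The log2 fold change was 0.52 ± 0.065 in SU-DHL-8 (SE, n = 3 per group, limma adjusted p = 6.9e-05) and 1.38 ± 0.065 in Farage (adjusted p = 7.8e-08).

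ATF4 has processed pseudogenes whose reads can be shared with it. ATF4P3 stayed between 0.543 and 3.29 FPKM over the 12 libraries, ATF4P4 at or below 0.388 FPKM, and ATF4P1 and ATF4P2 were listed at 0. These levels are small beside the 102 to 353 FPKM of ATF4.

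ATF3 (ENSG00000162772, chr1:212565334-212620777, plus strand) codes for a bZIP factor that is induced by many stresses and can repress its targets. In SU-DHL-8, ATF3 was at 19.6, 19.5 and 18.9 FPKM with morusinol, against 1.65, 1.70 and 1.80 FPKM in control. In Farage, ATF3 was at 25.8, 26.6 and 25.4 FPKM with morusinol, against 1.14, 0.932 and 1.25 FPKM in control. The treated libraries of both lines thus stood far above all control libraries. The ratio of mean FPKM was 11.3 in SU-DHL-8 and 23.4 in Farage. On the log2(FPKM + 1) scale the changes were 2.90 ± 0.055 (adjusted p = 2.2e-10) and 3.68 ± 0.055 (adjusted p = 1.5e-10), and the pseudocount holds them down because the control levels are low. By size, ATF3 had the highest log2 fold change of all 17574 genes in Farage and ranked 15 from the top in SU-DHL-8.

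DDIT3 (ENSG00000175197, chr12:57516588-57521737, minus strand) codes for CHOP, a C/EBP relative linked to cell death under prolonged stress. In SU-DHL-8, DDIT3 was at 133, 126 and 136 FPKM with morusinol, against 25.6, 23.1 and 23.6 FPKM in control. In Farage, DDIT3 was at 56.5, 60.1 and 53.4 FPKM with morusinol, against 4.98, 5.49 and 6.37 FPKM in control. Every treated library was above every control library, also across the lines. The log2 fold changes were 2.40 ± 0.075 in SU-DHL-8 (adjusted p = 3.7e-09) and 3.13 ± 0.075 in Farage (adjusted p = 1.1e-09), ranks 41 and 7 from the top.

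DDIT3 shares 355 of its 1307 exon bases (27.2%) with MARS1, a methionyl-tRNA synthetase gene on the opposite strand. Whether reads were counted by strand is not stated in the sources at hand. MARS1 averaged 65.3 ± 1.98 FPKM with morusinol and 56.7 ± 0.335 FPKM in control in SU-DHL-8, and 60.3 ± 2.68 and 25.2 ± 2.40 FPKM in the same groups of Farage (SD, n = 3). Coverage of the shared bases by MARS1 at its mean level would equal 17.7 and 15.4 FPKM of DDIT3 in SU-DHL-8 morusinol and control, and 16.4 and 6.85 FPKM in Farage morusinol and control. DDIT3 itself averaged 132 and 24.1 FPKM in those SU-DHL-8 groups and 56.7 and 5.62 FPKM in those Farage groups. In both treated groups the level was well above this amount, whereas in Farage control it was below it. How reads from the shared bases were assigned was not tested, so the DDIT3 control levels and fold changes are uncertain to that extent. MBD6, also on the opposite strand, shares 58 exon bases with DDIT3. Even coverage at its mean levels would equal at most 0.256 FPKM of DDIT3, in Farage morusinol.

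CEBPB (ENSG00000172216, chr20:50190734-50192689, plus strand) codes for C/EBPbeta, a bZIP factor of inflammation and stress that can pair with ATF4. In SU-DHL-8, CEBPB was at 151, 138 and 143 FPKM with morusinol, against 32.2, 34.7 and 36.1 FPKM in control. In Farage, CEBPB was at 41.1, 41.6 and 39.6 FPKM with morusinol, against 3.05, 3.28 and 2.13 FPKM in control. Treated Farage cells thus only just passed the level of untreated SU-DHL-8 cells. The changes were 2.04 ± 0.099 in SU-DHL-8 (adjusted p = 6.2e-08) and 3.46 ± 0.099 in Farage (adjusted p = 3.6e-09), the third largest rise of all genes in that line. CEBPB-AS1, on the opposite strand, shares 231 of the 1956 exon bases. It averaged 9.43 and 1.38 FPKM in SU-DHL-8 morusinol and control and 1.19 and 0.187 FPKM in Farage morusinol and control, far below CEBPB.

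CEBPG (ENSG00000153879, chr19:33373330-33382686, plus strand) codes for C/EBPgamma, a short family member that lacks an activation domain and pairs with ATF4. In SU-DHL-8, CEBPG was at 53.2, 55.0 and 60.0 FPKM with morusinol, against 29.9, 31.6 and 28.98 FPKM in control. In Farage, CEBPG was at 37.0, 38.2 and 36.3 FPKM with morusinol, against 16.7, 16.3 and 15.4 FPKM in control. The rises were close to each other in size, 0.87 ± 0.052 in SU-DHL-8 (adjusted p = 2.7e-07) and 1.16 ± 0.052 in Farage (adjusted p = 5.6e-08). CEBPB was at 2.57 ± 0.237 times the FPKM of CEBPG with morusinol and 1.14 ± 0.0906 times in control in SU-DHL-8. In Farage the same ratio was 1.10 ± 0.0124 with morusinol and 0.174 ± 0.0323 in control (SD, n = 3).

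TRIB3 (ENSG00000101255, chr20:362835-397559, plus strand) codes for a Tribbles pseudokinase that is induced by ATF4 with CHOP and feeds back on both. In SU-DHL-8, TRIB3 was at 240, 226 and 213 FPKM with morusinol, against 56.0, 53.3 and 55.1 FPKM in control. In Farage, TRIB3 was at 51.7, 55.4 and 48.8 FPKM with morusinol, against 7.66, 8.05 and 9.10 FPKM in control. Treated Farage libraries overlapped with untreated SU-DHL-8 libraries. The log2 fold changes were 2.02 ± 0.067 in SU-DHL-8 (adjusted p = 5.1e-09) and 2.52 ± 0.067 in Farage (adjusted p = 2.1e-09).

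ATF5 (ENSG00000169136, chr19:49928702-49933935, plus strand) codes for a bZIP factor that, like ATF4, is controlled by upstream reading frames and is linked to the mitochondrial stress response. In SU-DHL-8, ATF5 was at 108, 111 and 108 FPKM with morusinol, against 200.1, 193 and 211 FPKM in control. In Farage, ATF5 was at 213, 201 and 203 FPKM with morusinol, against 111, 98.8 and 105 FPKM in control. The levels thus crossed over: treated SU-DHL-8 overlapped with untreated Farage, and untreated SU-DHL-8 overlapped with treated Farage. ATF5 fell by 0.88 ± 0.048 on the log2 scale in SU-DHL-8 (adjusted p = 1.6e-07) and rose by 0.96 ± 0.048 in Farage (adjusted p = 1.3e-07). Of all genes tested, 2.55% were called lower in SU-DHL-8 and higher in Farage, 1.71% the reverse, and 11.5% were called higher in both lines.

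NUP62, a nuclear pore gene on the opposite strand, shares 626 of the 2954 exon bases of ATF5 (21.2%). It averaged 7.17 ± 0.315 FPKM with morusinol and 11.8 ± 0.998 FPKM in control in SU-DHL-8, and 34.0 ± 1.996 and 25.8 ± 1.47 FPKM in Farage. It changed by -0.64 ± 0.066 in SU-DHL-8 and 0.38 ± 0.066 in Farage, the same directions as ATF5. Even coverage of the shared bases at these levels would equal at most 7.21 FPKM of ATF5, in Farage morusinol, where ATF5 averaged 206 FPKM. IL4I1, also on the opposite strand, shares 75 of the 2954 exon bases. Even coverage at its mean levels would equal at most 1.31 FPKM of ATF5, in Farage control.

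**Figure D2:**
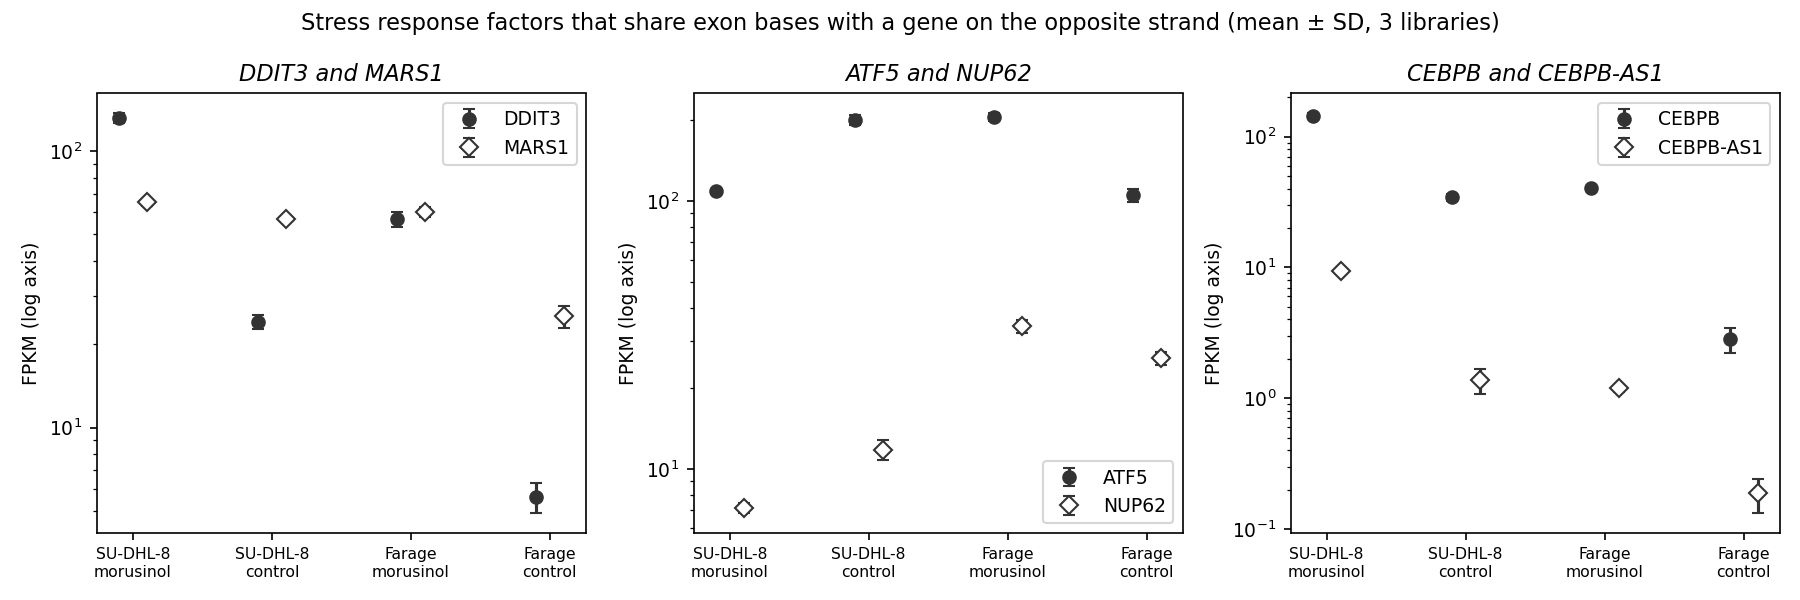
Mean FPKM ± SD (log axis, 3 libraries per group) of DDIT3, ATF5 and CEBPB (filled circles). Open diamonds show the gene that shares most exon bases with each on the opposite strand. MARS1 lay above DDIT3 in both control groups and slightly above it in Farage morusinol, whereas NUP62 and CEBPB-AS1 lay below their partners in all 4 groups.

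NUPR1 (ENSG00000176046, chr16:28532708-28539174, minus strand) codes for a small stress-inducible chromatin protein and is a known ATF4 target in other cells. It was listed at 0 in 11 libraries and at 0.00614 FPKM in 1 SU-DHL-8 control library, about the worth of 1 counted read, and it did not pass the filter for testing. The 13 mitochondrially encoded protein genes, which every cell uses, are listed at 0 in all 12 libraries, so a listed 0 need not mean absent RNA. Unlike those genes, NUPR1 had a value above 0 in 1 library, so its row was not left out of counting altogether.

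The next comparison was whether the response differed between the lines, tested as the response of Farage less that of SU-DHL-8. On the log2 scale the difference was positive for each of the 7 genes tested, while 34.9% of all genes were called for this difference and 17.3% were called with a positive one. Of all such calls, 49.6% were positive, or 62.5% with TPM. It was 1.84 ± 0.069 for ATF5 (adjusted p = 1.0e-07), where the directions were opposite, and 1.43 ± 0.14 for CEBPB (adjusted p = 3.3e-05). ATF4 had 0.86 ± 0.092 and ATF3 0.78 ± 0.078 (adjusted p = 5.7e-05 and 3.9e-05). DDIT3 had 0.72 ± 0.11 (adjusted p = 5.0e-04) and TRIB3 0.49 ± 0.095 (adjusted p = 0.00267). CEBPG, at 0.28 ± 0.073, was the smallest (adjusted p = 0.0129).

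**Figure D3:**
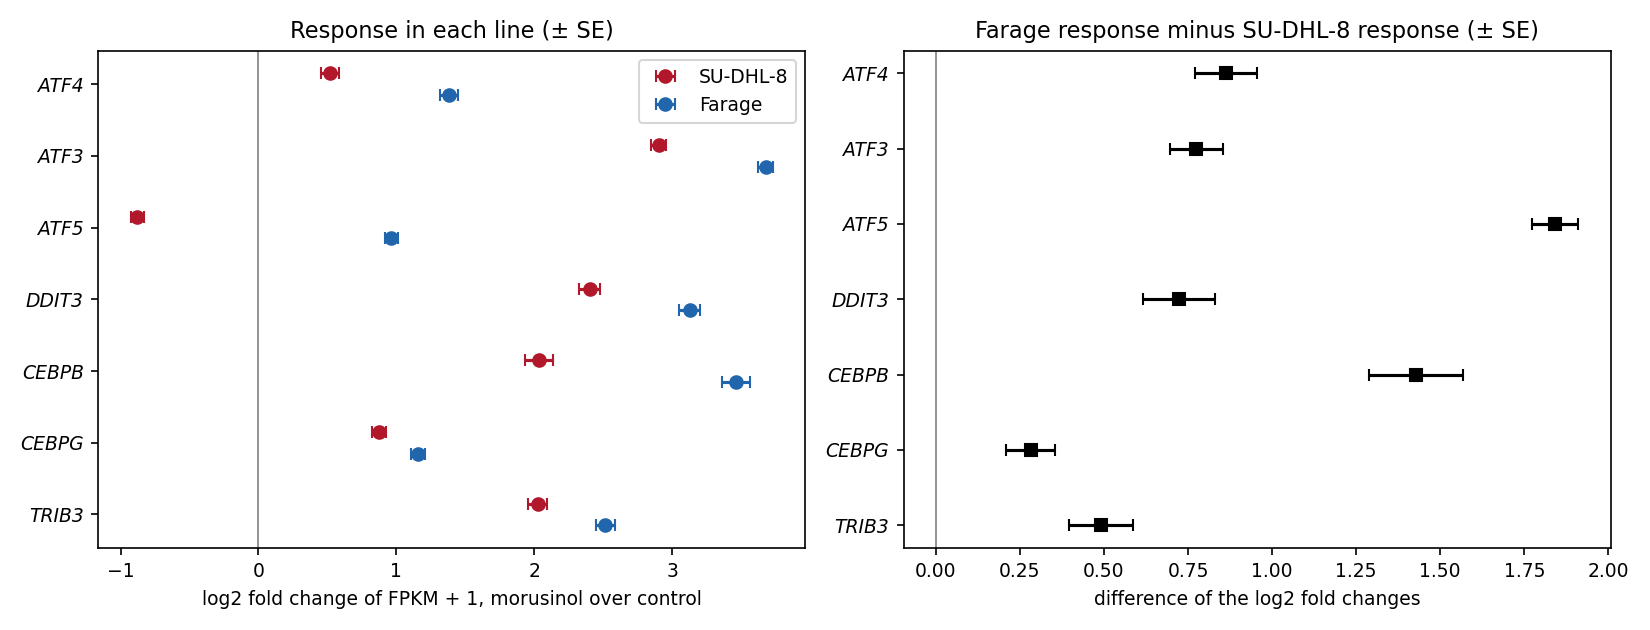
Left, log2 fold change of FPKM + 1 (morusinol over control) ± SE of each gene in SU-DHL-8 (red) and Farage (blue). Right, the response of Farage less that of SU-DHL-8 ± SE. Each right-hand value is above 0, from 0.28 for CEBPG to 1.84 for ATF5.

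The order of the lines depended on the scale. As a difference of mean FPKM, morusinol minus control, TRIB3 gained 43.7 ± 1.98 FPKM in Farage and 171.5 ± 7.94 FPKM in SU-DHL-8 (SE, n = 3 per group). CEBPB gained 38.0 ± 0.687 FPKM in Farage and 109.5 ± 3.93 FPKM in SU-DHL-8, and DDIT3 gained 51.1 ± 1.98 FPKM in Farage and 107.7 ± 3.03 FPKM in SU-DHL-8. For these 3 genes the larger gain in FPKM was thus in SU-DHL-8 and the larger fold change in Farage. CEBPG gained 21.0 ± 0.684 FPKM in Farage and 25.9 ± 2.17 FPKM in SU-DHL-8. The line difference in FPKM gain was not tested. ATF4 gained more FPKM in Farage, 183.5 ± 10.4 against 101.8 ± 10.7 in SU-DHL-8, and so did ATF3, 24.8 ± 0.359 against 17.6 ± 0.221.

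**Figure D4:**
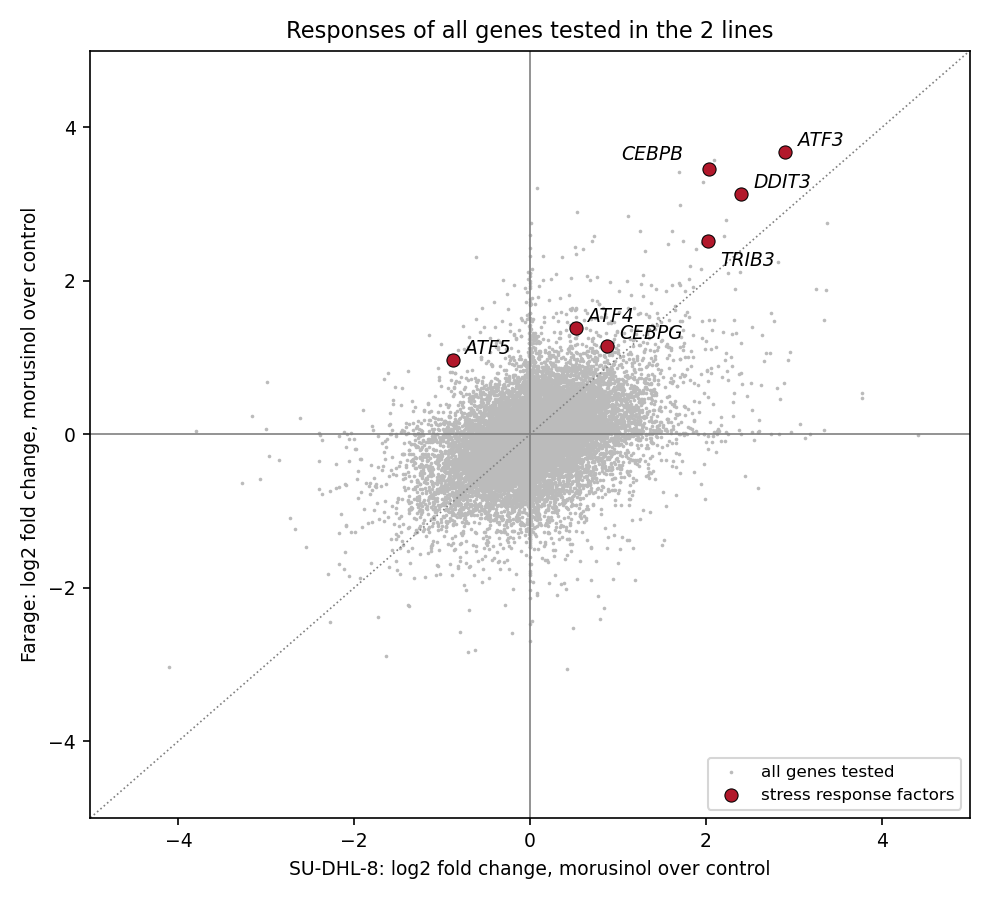
Log2 fold change (morusinol over control) in SU-DHL-8 (horizontal) and Farage (vertical) of all 17574 genes tested (grey) and of 7 stress response factors (red), with a dotted line of equal change. ATF3, DDIT3, CEBPB and TRIB3 lie at the upper right edge of the cloud, and ATF5 lies at the upper left.

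Untreated, the lines started from different levels, and these contrasts share libraries with the responses above. In control libraries 7 of the 7 tested genes were lower in Farage than in SU-DHL-8, while 64.1% of all genes were called between the untreated lines and 29.6% were called lower in Farage. The gap was widest for CEBPB, 2.82 ± 0.607 FPKM in Farage control and 34.3 ± 1.95 FPKM in SU-DHL-8 control (log2 difference -3.22 ± 0.099, adjusted p = 4.4e-10). TRIB3 differed by -2.59 ± 0.067 and DDIT3 by -1.93 ± 0.075 (adjusted p = 1.2e-10 and 3.0e-09). ATF4, ATF5 and CEBPG differed by -1.04, -0.93 and -0.86, and ATF3 by -0.37 ± 0.055 (adjusted p = 1.4e-04).

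With morusinol, TRIB3 (-2.10 ± 0.067), CEBPB (-1.79 ± 0.099), DDIT3 (-1.20 ± 0.075) and CEBPG (-0.58 ± 0.052) were lower in Farage than in SU-DHL-8, with adjusted p between 5.4e-10 and 2.4e-06. ATF5 was higher in Farage by 0.91 ± 0.048 (adjusted p = 3.2e-08) and ATF3 by 0.41 ± 0.055 (adjusted p = 6.6e-05). As background, 65.1% of all genes were called between the treated lines, 50.7% of those calls higher in Farage, or 61.8% with TPM. Of all genes, 33.0% were called higher and 32.1% lower in Farage. ATF4 differed by -0.17 ± 0.065 (adjusted p = 0.0364). This call was lost with no filter, with 2 other scalings and without the trend and robust prior, and when any 1 of 3 libraries was left out. Rescaling to TPM turned its sign (0.05 ± 0.074, adjusted p = 0.617). The highest adjusted p without a library was 0.129, without Farage morusinol replicate 3, and it was 0.127 without SU-DHL-8 morusinol replicate 1 and 0.0742 without SU-DHL-8 morusinol replicate 2.

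In order of level, DDIT3, CEBPG, CEBPB and ATF4 ran SU-DHL-8 morusinol, Farage morusinol, SU-DHL-8 control and Farage control from high to low, with no overlap between neighbours. ATF3 ran Farage morusinol, SU-DHL-8 morusinol, SU-DHL-8 control and Farage control, also without overlap. For TRIB3 the 2 middle groups, SU-DHL-8 control and Farage morusinol, overlapped. As background, the 3 and 3 libraries did not overlap for 54.1% of all genes between morusinol and control in SU-DHL-8 and for 51.0% in Farage. Between Farage and SU-DHL-8 they did not overlap for 69.5% of genes in control and for 67.2% with morusinol. The share of all genes apart between Farage morusinol and SU-DHL-8 control, or over the whole order, was not computed. How common such an order is among all genes is therefore not known here.

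In both lines, ATF5 made up less of the summed level of the 8 genes with morusinol than in control, and TRIB3 made up more. The CEBPG share overlapped between SU-DHL-8 morusinol, SU-DHL-8 control and Farage morusinol, at means of 5.50%, 5.21% and 5.20%. The 8 genes summed to 1021 ± 32.2 FPKM with morusinol and 579.5 ± 16.1 FPKM in control in SU-DHL-8, and to 715 ± 25.6 and 252 ± 15.3 FPKM in Farage. ATF5 made up 10.7% ± 0.414 of that sum in SU-DHL-8 morusinol and 34.7% ± 0.625 in SU-DHL-8 control. Its share was 28.8% ± 1.05 in Farage morusinol and 41.6% ± 0.589 in Farage control. TRIB3 took 22.1% ± 0.71 in SU-DHL-8 morusinol and 9.46% ± 0.185 in SU-DHL-8 control, against 7.27% ± 0.30 and 3.28% ± 0.343 in the same groups of Farage. DDIT3 was at 0.394 ± 0.0285 of the FPKM of ATF4 in SU-DHL-8 morusinol and 0.103 ± 0.00504 in SU-DHL-8 control, and at 0.191 ± 0.00594 in Farage morusinol and 0.0498 ± 0.00714 in Farage control.

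Genes with a pattern like each factor were sought over the 12 libraries by Pearson r of log2(FPKM + 1) among 7680 protein-coding genes. The points share lines and treatments, so r describes the pattern only. ATF4 was followed most closely by GARS1 (r = 0.992), SLC7A1 and BABAM2. ATF3 was followed by KLHL24 (r = 0.996) and NFE2L1, and DDIT3 by GPR108 (r = 0.994), LRRC8D and NR1D2. For CEBPB they were MBTD1 (r = 0.993), RCBTB1 and IRGQ, and for CEBPG they were XBP1 (r = 0.998), LRRC8D and RAB3GAP1. TRIB3 was nearest to ARID5A (r = 0.996), SPNS3 and SERINC3. ATF5 had the least close neighbours, PHF13 (r = 0.976), RCC2 (0.972) and CDK2AP1 (0.951). PHF13, a chromatin reader, was at 3.79 and 7.57 FPKM in SU-DHL-8 morusinol and control and at 7.06 and 3.97 FPKM in Farage morusinol and control.

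Upstream of ATF4, the list of 12 genes for the eIF2alpha kinases, eIF2alpha, the phosphatase regulators and the exchange factor eIF2B was mixed in direction. In SU-DHL-8, 3 rose and 6 fell (median log2 fold change -0.12), and in Farage 4 rose and 6 fell (median -0.16). Over all genes, 25.1% were called higher and 21.6% lower in SU-DHL-8 (median 0.02), and 21.9% and 21.2% in Farage (median -0.03). EIF2AK4, named after its values were seen, averaged 0.557 and 0.450 FPKM in SU-DHL-8 morusinol and control. In Farage morusinol and control it averaged 6.76 and 7.45 FPKM. It entered the test through Farage, and the SU-DHL-8 median includes it. PPP1R15A (GADD34, which directs dephosphorylation of eIF2alpha) averaged 153.5 ± 6.88 FPKM with morusinol and 14.1 ± 1.66 FPKM in control in SU-DHL-8, and 162.5 ± 8.60 and 43.5 ± 4.18 FPKM in Farage. Its log2 change was 3.36 ± 0.087 in SU-DHL-8 and 1.88 ± 0.087 in Farage, with a difference of -1.48 (adjusted p = 1.1e-05), opposite in sign to that of the 7 factors. EIF2AK3 (PERK, the kinase of the endoplasmic reticulum) rose by 1.58 ± 0.042 and 1.49 ± 0.042. EIF2AK2 (PKR, the kinase activated by double-stranded RNA) changed by -0.86 and -0.97, and EIF2B3 by -0.61 and -0.59, in SU-DHL-8 and Farage.

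Of 36 other bZIP genes, 31 were tested. In SU-DHL-8, 20 rose and 5 fell (median 0.30), and in Farage 23 rose and 1 fell (median 0.91). The shares over all genes were 25.1% higher and 21.6% lower in SU-DHL-8 and 21.9% higher and 21.2% lower in Farage. CREB3L2, CEBPD, FOSL2 and DBP, named after their values were seen, averaged under 1 FPKM in both SU-DHL-8 groups. They entered the test largely through Farage, and the SU-DHL-8 counts and median include them. In Farage morusinol and control, CEBPD averaged 2.95 and 0.668 FPKM and FOSL2 3.26 and 0.945 FPKM. MAFF, also named after its values were seen, averaged under 1 FPKM in both control groups only. CEBPD, FOSL2 and MAFF thus passed the filter largely through morusinol groups, so their called rises follow in part from how they entered. The counts and medians include these genes too. NFIL3, a repressor of the PAR bZIP class of sites, rose by 2.30 ± 0.12 in SU-DHL-8, and JUN, a core AP-1 subunit, by 2.10 ± 0.089. In Farage the largest rises were those of XBP1, a factor of the unfolded protein response (2.49 ± 0.045), and NFE2L1, which controls proteasome genes (1.97 ± 0.057). CREM, ATF1 and ATF7 were also among the 5 that fell, named after their values were seen. MAFK, a small MAF protein, fell by 0.84 ± 0.092 and TEF by 0.71 ± 0.088 in SU-DHL-8, while CREBZF fell by 0.24 ± 0.047 in Farage.

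Downstream, 40 genes described as targets of ATF4 or CHOP were listed and 35 were tested. In SU-DHL-8, 25 rose and 4 fell (median 0.54), and in Farage 34 rose (median 1.88), and CDKN1A, the p21 inhibitor of cyclin-dependent kinases, was not called (-0.11 ± 0.12). Of all genes, 25.1% were called higher in SU-DHL-8 and 21.9% in Farage. The difference between the responses was called for 34 of them, 31 with a larger value in Farage and 3, PPP1R15A, INHBE and TNFRSF10B, with a larger value in SU-DHL-8 (these names were taken after their values were seen, median difference 1.04, beside -0.07 over all genes). This difference was called for 34.9% of all genes, 17.3% with a larger value in Farage. Of the 31, PHGDH, STC2 and SLC6A9, named after their values were seen, averaged at most 0.104 FPKM in either SU-DHL-8 group. They passed the filter only through Farage, so their larger value there follows in part from how they entered. The counts and medians include them. SLC6A9 averaged 5.71 FPKM in Farage morusinol and 0.333 FPKM in Farage control, so its rise in Farage has the same limit. SESN2, a restraint on mTORC1, averaged 90.4 ± 4.13 FPKM with morusinol and 6.69 ± 0.0661 FPKM in control in Farage, and CHAC1, which degrades glutathione, 55.3 ± 3.83 and 4.29 ± 0.652 FPKM. PPP1R15A belongs to this list too. JDP2, named after its values were seen, is counted both here and among the bZIP genes. It rose by 0.96 ± 0.11 in Farage, where it averaged only 1.07 and 0.0650 FPKM in morusinol and control. INHBE, the inhibin beta E chain, averaged 25.4 ± 1.76 and 1.57 ± 0.368 FPKM in SU-DHL-8 morusinol and control. In Farage morusinol and control it averaged 9.25 ± 1.06 and 0.508 ± 0.0744 FPKM. The pseudocount of 1 holds down its fold change more in Farage, so its larger value in SU-DHL-8 rests on that setting. The falls in SU-DHL-8 were led by CDKN1A (-0.64 ± 0.12) and ERO1A, the oxidase of the endoplasmic reticulum (-0.35 ± 0.084), and the others were SLC7A5 and BCL2L11, named after their values were seen.

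The list of 10 mitochondrial chaperones and proteases, the class linked to ATF5, gave 3 higher and 4 lower in SU-DHL-8 (median -0.08) and 3 higher and 5 lower in Farage (median -0.05). All genes gave 25.1% higher and 21.6% lower in SU-DHL-8 and 21.9% higher and 21.2% lower in Farage. LONP1, a matrix protease, rose by 0.76 ± 0.059 in SU-DHL-8 and 0.99 ± 0.059 in Farage. The next largest rises were those of YME1L1 in SU-DHL-8 (0.25 ± 0.053) and HSPA9 in Farage (0.29 ± 0.034). HSPE1, the small matrix co-chaperonin, fell by 1.94 ± 0.079 and 1.87 ± 0.079, and TRAP1, a mitochondrial HSP90, by 0.70 and 0.57. The difference between the responses was called for 2 of the 10 genes, beside 34.9% of all genes. These were HSPA9 and CLPP, and CLPP was named after its values were seen.

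**Figure D5:**
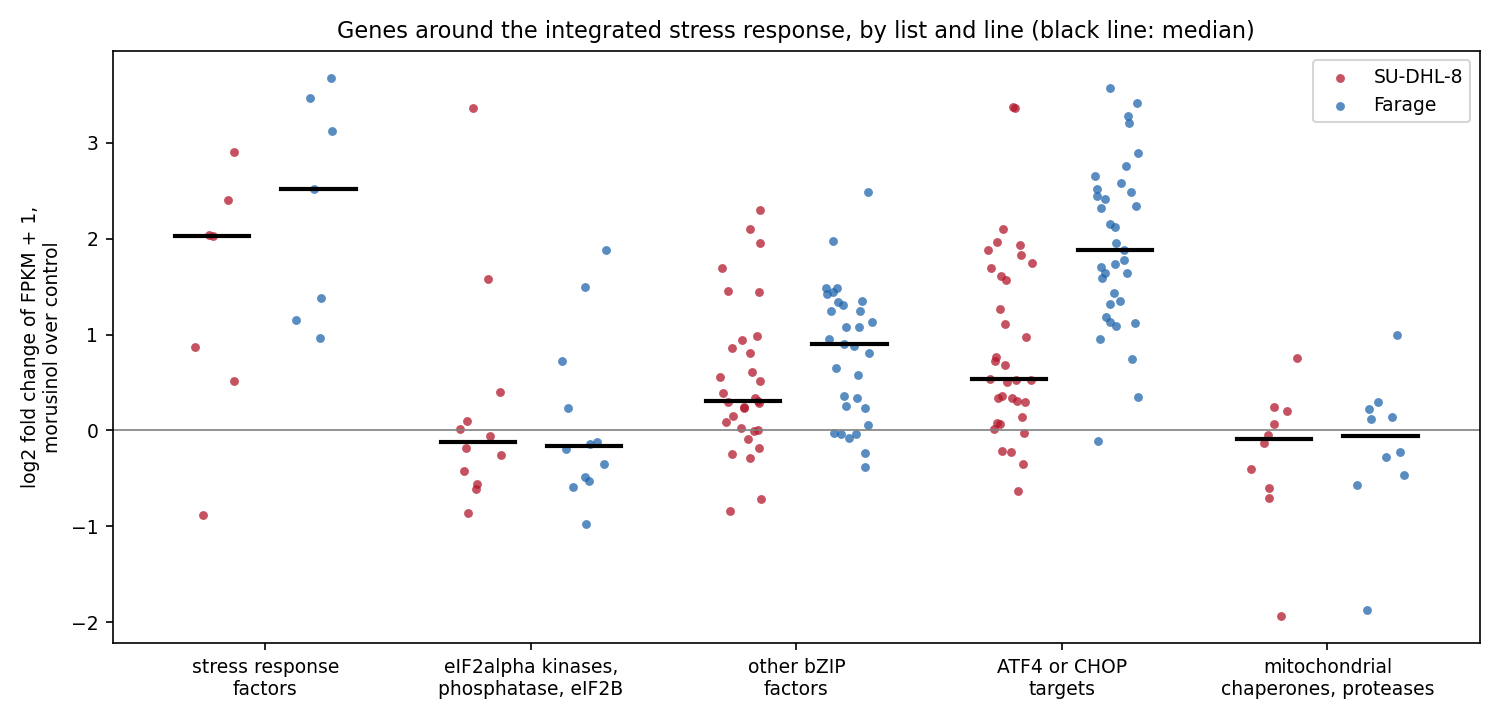
Log2 fold change of FPKM + 1 (morusinol over control) of each tested gene, by list, in SU-DHL-8 (red) and Farage (blue), with the list median in black. The target list has a median of 0.54 in SU-DHL-8 and 1.88 in Farage, and the kinase and mitochondrial lists have medians near 0 in both.

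The libraries matched their label as B lymphocytes, since 5 B cell markers (MS4A1, CD79A, CD79B, CD22 and PAX5) were at 1 FPKM or more in every library. Their summed level was lower with morusinol, 192 to 196.5 FPKM in SU-DHL-8 morusinol against 304 to 318.5 FPKM in SU-DHL-8 control, and 569 to 612 FPKM in Farage morusinol against 892 to 943 FPKM in Farage control. The fall was not even over the markers in Farage, where CD79A, the highest of them, averaged 376 FPKM with morusinol and 391 FPKM in control. In bulk RNA, fewer cells of a type and less RNA per cell cannot be told apart. The part of this shift in the results was not tested. Of the other lists, 7 myeloid markers summed to at most 1.92 FPKM in any library, 8 stromal and epithelial markers to at most 2.18 FPKM and 3 erythroid markers to at most 0.315 FPKM. The 8 T and NK cell markers summed to 2.44 to 4.33 FPKM in SU-DHL-8 and to 45.5 to 80.3 FPKM in Farage, where the T cell receptor constant gene TRAC gave most of the sum. Of these 8, 1 or 2 reached 1 FPKM in all libraries of a group.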

How the data were processed

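The authors deposited 1 table of FPKM with 1 column per library. No source at hand names an aligner, counting program, annotation or strand setting. The submitters' processing notes name only mouse builds (GRCm38 and mm10), but the gene identifiers are human, and 58297 of 61466 (94.8%) match GENCODE release 29 (GRCh38), which gave positions, exon lengths and gene types. Columns marked mor were taken as morusinol and those marked n as control. Per the labels' protocols, a SMARTER kit for mRNA made the libraries.

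Genes with at least 1 FPKM in at least 3 libraries were kept (17574). limma 3.58.1 (R 4.3.3) was fitted to log2(FPKM + 1) over all 12 libraries, with 1 mean per group, an intensity trend and a robust prior, and p-values were adjusted by Benjamini-Hochberg over all genes tested. All tests were two-sided. The limma steps were tested on simulated data. Python 3.11.15, pandas 2.3.3, numpy 2.4.6 and matplotlib 3.10.9 served for tables and plots.

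Depth was estimated from the smallest steps of value times exon length. These put the libraries at 12.1 to 37.9 M (mega) counted reads, with 58.6% to 75.9% of values under 50 reads whole within 0.02. Lowest depth was in SU-DHL-8 morusinol replicate 2. If both mates of a pair were counted, there are fewer fragments than that. At these estimates ATF3 and CEBPB rested on at least 140 and 138 reads per library and the other 5 tested factors on more. The estimates give no counting interval, so precision is shown by the spread of libraries.

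The 8 genes and the gene lists were chosen with earlier results of these data known. Named list genes are the 2 largest called rises and 2 largest called falls per list and line, apart from those said to be named after their values were seen. Neighbours in pattern are the 3 highest r per gene, among protein-coding genes with a group mean of at least 5 FPKM. One such neighbour of ATF3 and 1 listed B cell marker are not reported here. Alternatives covered the pseudocount, the filter, scaling, the prior, the libraries fitted, the replicate block and leaving out each library.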

Additional observations from a re-analysis of the deposited data

Results flagged for a closer look

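The responses of the 2 lines differed for 7 genes, with n = 3 libraries per group. The limma test was of the response of Farage less that of SU-DHL-8 on the log2 scale. As background, 34.9% of all genes were called for this difference, 17.3% with a positive one. Treated and control libraries did not overlap for 54.1% of all genes in SU-DHL-8 and for 51.0% in Farage. For ATF5 the difference was 1.84, with 3 of 3 treated libraries below the controls in SU-DHL-8 and 3 of 3 above them in Farage. For the others both lines moved upward, in 3 of 3 treated libraries each, and the difference lay in size. It was 1.43 for CEBPB, 0.86 for ATF4 and 0.78 for ATF3. It was 0.72 for DDIT3, 0.49 for TRIB3 and 0.28 for CEBPG. The response of MARS1, which shares exon bases with DDIT3, differed between the lines by 1.03, and that of NUP62, which shares exon bases with ATF5, by 1.03 as well. Their part in these differences was not tested.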

How the results depend on the processing

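Over all alternatives, the calls of the 7 genes within each line, for how the lines differed in response and between the untreated lines kept their direction and their side of the threshold. Between the treated lines 7 genes were called, or 6 where ATF4 was lost, as it was with no filter, with scaling to protein-coding genes, with median-of-ratios scaling and without the trend and robust prior (adjusted p = 0.0649, 0.109, 0.17 and 0.0566). Its difference turned to 0.045 with TPM, and without 1 library it lay between -0.21 and -0.13. The cause was not tested. TPM moved the median difference of all genes from 0.01 to 0.20 between the treated lines and from 0.08 to 0.19 between the untreated ones. It moved the share of positive calls for the difference of the responses from 49.6% to 62.5%. The libraries summed to between 346099 and 429757 FPKM, so TPM values are larger than FPKM while the pseudocount stayed at 1. That setting thus changed the scaling and the relative weight of the pseudocount together. With a filter of 5 FPKM fewer genes were tested (8908), and those called numbered 7043 between the untreated lines and 7033 between the treated ones, against 11271 and 11441. With a pseudocount of 0.1, ATF3 changed by 3.42 in SU-DHL-8 and 4.44 in Farage. Replicate numbers were not taken as pairs, since the deviations of same-numbered libraries from their group means correlated at -0.079 to 0.033 and not every library correlated best with its own number. With the replicate block, 7619 genes were called in SU-DHL-8, 6853 in Farage and 5110 for the difference of the responses, against 8216, 7567 and 6126, and no call of the 7 genes changed. Only the deposited FPKM were used, so depth enters only as an estimate.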

Other observations

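TRIB3 has relatives among the Tribbles pseudokinases. TRIB2 averaged 11.9 ± 0.342 FPKM with morusinol and 2.92 ± 0.284 FPKM in control in SU-DHL-8, a rise of 1.72 ± 0.080 on the log2 scale (limma adjusted p = 4.7e-08). In Farage it averaged 1.18 ± 0.189 FPKM with morusinol and 1.77 ± 0.165 FPKM in control, a log2 fold change of -0.35 ± 0.080 (adjusted p = 0.00543). The difference of the responses was -2.07 ± 0.11 (adjusted p = 7.5e-07), opposite in sign to the 0.49 of TRIB3. TRIB1 rose by 0.69 ± 0.097 in SU-DHL-8 and 0.31 ± 0.097 in Farage (adjusted p = 1.6e-04 and 0.0264), with a difference that was not called (-0.38, adjusted p = 0.053). NUPR2, the relative of NUPR1, was not tested.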
